A study of Homo sapiens with 16 samples.

Results

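Lysosome genes and the factors TFEB and TFE3 form a set of 40 genes, chosen by name from the 26475 gene symbols of the deposited count table. They comprise 2 transcription factors, 7 lysosomal membrane proteins, 8 proteases, 6 glycosidases, 6 proton pump subunits and 5 autophagy genes. A further group of 6 holds hydrolases of lipids or sulfates, their activators and, placed with them, progranulin (GRN). All 40 had enough counts to be tested among 16012 genes. The libraries came from A375 MA2-Luc, an established human melanoma line with mutant BRAF, recovered as lung metastases from immunodeficient NSG mice. Every mouse received 250000 cells by retro-orbital injection, and 16 libraries of poly-A RNA formed 4 groups of 4. Mice ate a high fat or a ketogenic diet, and on each diet 4 libraries came from mice without drug and 4 from mice given inhibitors of the BRAF kinase and of MEK 1/2. Gavage was 3 times weekly over 5 weeks, with compounds and doses that the labels do not name. Mice without inhibitors, called untreated here, have no gavage on record, so gavage and inhibitors cannot be told apart, and no group ate a standard diet.

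Lysosomes are acidic compartments in which hydrolases break down proteins, glycans and lipids delivered by endocytosis and autophagy, and a proton pump, the V-ATPase, keeps them acidic. TFEB and TFE3 are basic helix-loop-helix factors of the MiT family, which also holds MITF, the lineage factor of melanocytes. While nutrients are plentiful the kinase complex mTORC1, at the lysosomal surface, keeps TFEB and TFE3 phosphorylated and outside the nucleus, and on starvation or lysosomal stress they enter it and bind CLEAR elements, short palindromic sites at many promoters of lysosome and autophagy genes. RNA levels do not report where the factors are in the cell.

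Each library held between 37.1 and 77.3 M (mega) estimated counts. Ribosomal RNA took 21.7% to 50.01% of the counts in untreated high fat libraries, 15.01% to 19.97% with inhibitors on that diet, 15.2% to 33.7% in untreated ketogenic libraries and 4.10% to 8.37% with inhibitors, and untreated high fat replicates 2 and 3 and untreated ketogenic replicate 2 exceeded 30%. Levels below are counts per M (CPM) on library sizes scaled by TMM, a trimmed mean of gene ratios, and a gene passed where its adjusted p was under 0.05. The labels do not say that each library came from its own mouse, so p-values measure the spread between these libraries. Where groups are said not to overlap, their ranges lay apart, and the share of all genes without such overlap was not computed. The melanoma marker list summed to 2371 to 4821 CPM per library, against 35.0 to 60.5 for 20 macrophage and neutrophil markers, 1.03 to 4.17 for 9 endothelial and 1.58 to 4.11 for 11 lung epithelial markers. CSPG4 (mean 1626 CPM over all libraries) and SOX10 (797.5) carried most of the melanoma sum. Untreated high fat replicate 4 alone held 3457 CPM of CSPG4. Melanocyte markers of that list were low, with means of 1.91 (PMEL), 1.57 (DCT), 0.88 (TYR), 0.22 (MLANA) and 0.13 CPM (TYRP1). Host cells are mouse cells, while the table counts human gene symbols. The macrophage, endothelial and lung sums therefore cannot show how much host tissue was present. In bulk RNA fewer cells of a type and less RNA per cell cannot be told apart, and whether cells were cultured after removal is not clear from the labels. Untreated high fat replicate 4 stood apart from its group in 5 members.

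Promoter windows are shown because CLEAR elements sit there. RefSeq windows (GRCh38.p14) of 250 bases before to 50 bases after a gene's start were found for 28 of the 40 members, as 42 windows. Both strands were searched for CACGTG, the E-box core of the element, and for TCACGTGA, which contains that core, and each motif reads the same on both strands. The longer motif was found in 6 of the 28 members (21.4%), against 1.18% of 27305 genes with a window and 0.98% of all 35116 windows. The core was found in 10 of the 28 (35.7%), against 8.77% of genes and 7.26% of windows. CLEAR elements are known at many promoters of lysosome genes, and the members were chosen as such genes. An excess over all genes was therefore to be expected beforehand and says nothing about the libraries. The 6 members were LAMP1, MCOLN1, CLN3, CTSA, GAA and ATP6V0D1. The 4 windows printed are those with the smallest p among the members that hold TCACGTGA and passed in at least 1 comparison, and capitals mark TCACGTGA. A match is a match of letters, and nothing about binding was measured.
ATP6V0D1 (chr16:67481108-67481407, minus strand): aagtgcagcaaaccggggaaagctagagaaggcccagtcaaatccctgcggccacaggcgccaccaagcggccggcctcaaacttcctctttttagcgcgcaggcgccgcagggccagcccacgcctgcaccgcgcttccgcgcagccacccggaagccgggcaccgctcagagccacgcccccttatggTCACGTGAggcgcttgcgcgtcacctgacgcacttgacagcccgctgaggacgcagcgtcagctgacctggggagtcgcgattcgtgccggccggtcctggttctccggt
MCOLN1 (chr19:7522374-7522673, plus strand): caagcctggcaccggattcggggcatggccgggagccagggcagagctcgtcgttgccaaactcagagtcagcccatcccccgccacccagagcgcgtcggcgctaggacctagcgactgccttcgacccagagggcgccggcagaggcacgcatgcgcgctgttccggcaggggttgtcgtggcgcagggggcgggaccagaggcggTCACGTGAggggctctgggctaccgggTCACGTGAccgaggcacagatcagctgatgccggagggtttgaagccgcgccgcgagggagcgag
LAMP1 (chr13:113296989-113297288, plus strand): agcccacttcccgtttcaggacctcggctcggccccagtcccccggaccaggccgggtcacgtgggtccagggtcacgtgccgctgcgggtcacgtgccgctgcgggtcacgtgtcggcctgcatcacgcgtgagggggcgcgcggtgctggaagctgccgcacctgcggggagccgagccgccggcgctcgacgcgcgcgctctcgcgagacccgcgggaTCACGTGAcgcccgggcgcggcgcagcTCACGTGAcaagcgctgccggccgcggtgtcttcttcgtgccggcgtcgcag
GAA (chr17:80101331-80101630, plus strand): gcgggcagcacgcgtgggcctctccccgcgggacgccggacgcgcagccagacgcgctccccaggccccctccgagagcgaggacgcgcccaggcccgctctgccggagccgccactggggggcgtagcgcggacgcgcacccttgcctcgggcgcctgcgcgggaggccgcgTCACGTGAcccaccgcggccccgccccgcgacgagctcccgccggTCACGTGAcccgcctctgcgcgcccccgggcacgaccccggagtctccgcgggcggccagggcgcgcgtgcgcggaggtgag
The motif began at -60 from the annotated start in ATP6V0D1, at -42 and -15 in MCOLN1, at -29 and -2 in LAMP1 and at -77 and -32 in GAA. CTSA carried 1 copy at -26, and CLN3 carried 1 copy, at -2 or 6 according to which of its 2 windows is read.

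**Figure D1:**
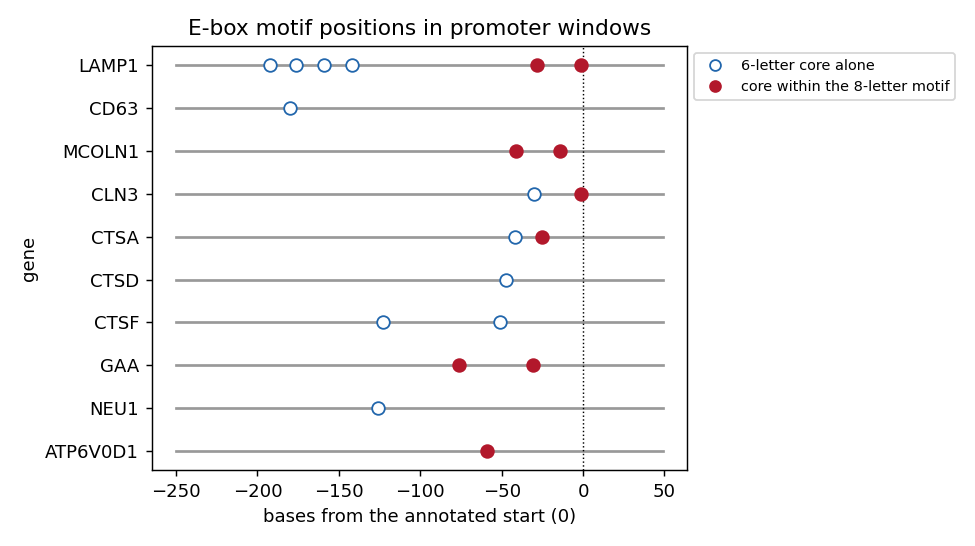
Position in bases from the annotated start (horizontal axis) of each CACGTG and TCACGTGA match in the promoter windows of the members that hold 1 or more, with 1 line per gene. Points mark the first base of the core, the filled points (cores within TCACGTGA) of the 6 members lie between -76 and -1, and CLN3 is drawn from the first of its 2 windows.

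Most calls among the 40 members came from inhibitors against none on the high fat diet. There 14 members were higher and 7 lower by edgeR's quasi-likelihood test, 21 in all (52.5%), where 42.3% of all genes tested passed (20.6% higher, 21.7% lower). The median of the members was log2 0.14, against -0.03 for all genes, and 0.076 without untreated high fat replicate 4. With libraries scaled by library size alone, which moved the median of all genes to 0.25, 19 members were higher and 1 lower. Without the 3 libraries over 30% ribosomal RNA, an alternative chosen after seeing the data, 15 passed, 11 higher and 4 lower, and the 6 lost were CD68, GLA, GLB1, PPT1, MAP1LC3B and UVRAG. With the share of ribosomal RNA as a covariate 16 passed, 12 higher and 4 lower. Over all genes 6087 of 16012 passed by library size alone, 3858 of 16367 without those 3 libraries and 4702 of 16012 with the covariate. That share did not overlap between the high fat groups, so covariate and inhibitors cannot be fully told apart. On the ketogenic diet the inhibitors gave 0 of 40, where 1.74% of all genes passed (0.856% higher, 0.887% lower). At an unadjusted p under 0.05 there were 11 members, DESeq2 called 6 (4 higher, 2 lower) and limma voom with quality weights 7 (3 higher, 4 lower), and the median was 0.04 against 0.01 for all genes, from -0.0052 without ketogenic replicate 4 with inhibitors to 0.12 without untreated ketogenic replicate 4. Leaving out any 1 of the 4 ketogenic libraries with inhibitors left 1 member past the test. Over all genes DESeq2 called 880 of 16012 there and limma voom 1456, and those omissions left 177 to 437.

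Between the diets, 11 members differed without inhibitors, 8 higher and 3 lower on the ketogenic diet (27.5%), where 13.5% of all genes passed (7.99% higher, 5.51% lower), and the median was 0.11 against -0.02 (0.058 without untreated ketogenic replicate 4, 0.068 without untreated high fat replicate 4). Leaving out untreated ketogenic replicate 1 or 2 left 5 members, and leaving out untreated high fat replicate 1 or 3 left 7. Over all genes these omissions left 919, 778, 1447 and 1044 calls, in that order. With libraries scaled by library size alone 8 were higher and 0 lower, where 1647 of 16012 genes passed. Without the 3 libraries over 30% ribosomal RNA 0 members and 0 genes of the whole table passed, with 13 members at an unadjusted p under 0.05 by edgeR. With inhibitors 0 members differed between the diets, where 0.169% of all genes passed, with 4 at an unadjusted p under 0.05, 0 by DESeq2 and 4 by limma voom, and a median of 0.01 against 0.02. Over all genes DESeq2 called 345 of 16012 there and limma voom 1057. The difference of the inhibitor effect (ketogenic minus high fat) was below 0 in 7 members and above 0 in 0 (17.5%), where 9.02% of all genes passed (4.66% below 0, 4.36% above). Its median was -0.10 against 0.03, and it came to -0.031 without untreated ketogenic replicate 4, -0.040 without untreated high fat replicate 4, and -0.060 and -0.063 without replicate 1 with inhibitors of the high fat and of the ketogenic diet. Some alternatives also called members above 0, with 5 of 18 by limma voom (27.8%), 1 of 9 by DESeq2, 2 of 9 without untreated ketogenic replicate 4, and 1 each with a replicate block, without high fat replicate 1 and without ketogenic replicate 4 with inhibitors. The count was 3 without untreated high fat replicate 3, untreated ketogenic replicate 2 or high fat replicate 2 or 3 with inhibitors, 4 without untreated ketogenic replicate 1, high fat replicate 4 or ketogenic replicate 1 with inhibitors, and 12 without ketogenic replicate 4 with inhibitors. Over all genes these omissions left 407 to 684, 455 to 662 and 2636 calls, in the same order. For this difference limma voom called 5208 of 16012 genes and DESeq2 2487. The untreated high fat libraries enter the first inhibitor comparison, the diet comparison without inhibitors and this difference, so those results are not independent of each other.

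**Figure D2:**
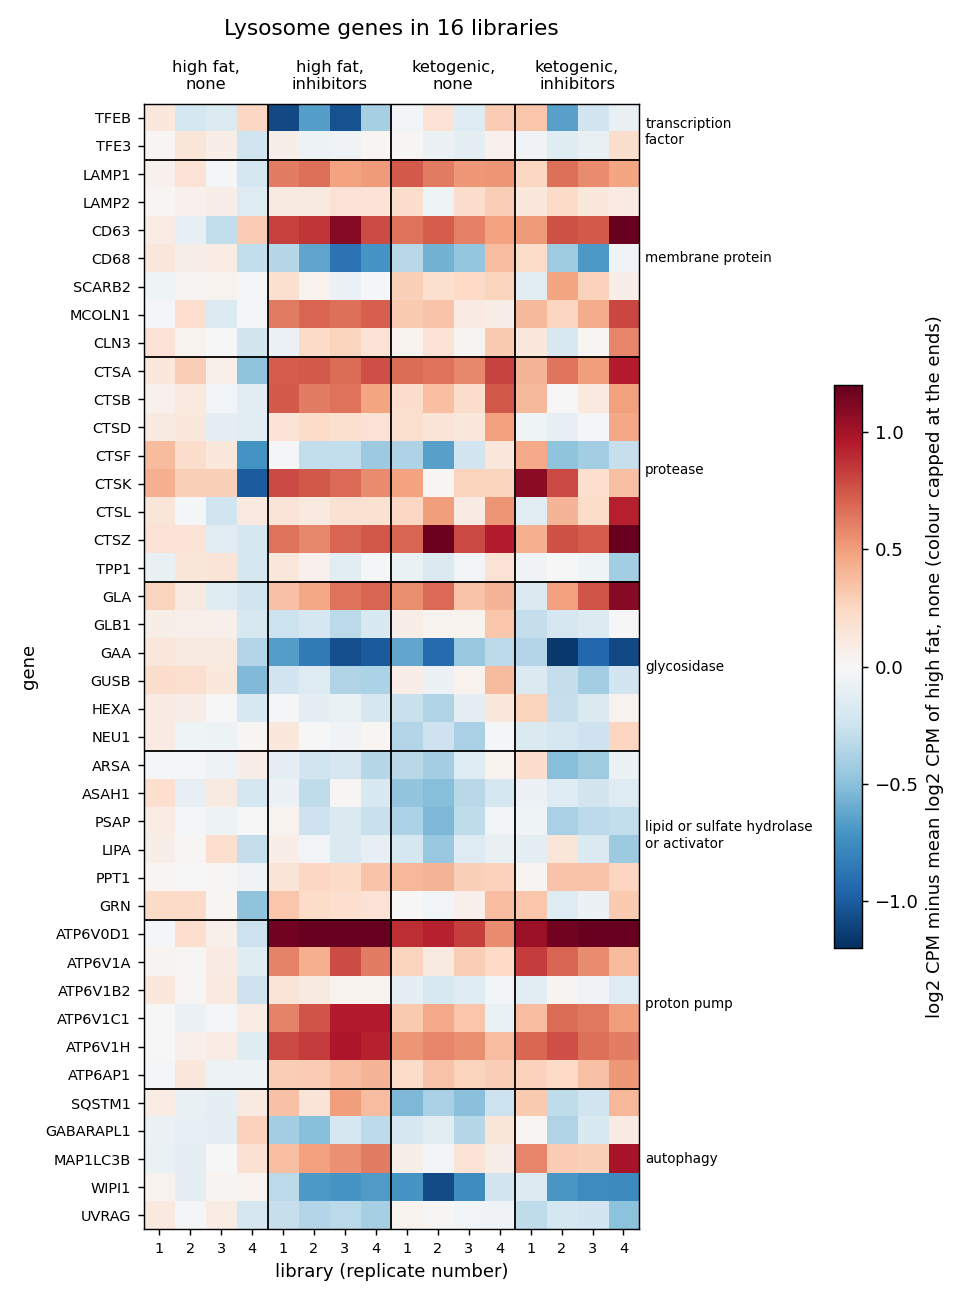
Each of the 16 libraries (columns, by group) for each of the 40 members (lines, by role), coloured by log2 CPM minus the gene's mean log2 CPM over the untreated high fat libraries, with the colour capped at the ends of the bar. The pump subunit ATP6V0D1 is above the untreated high fat mean in the 12 libraries of the other groups.

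TFEB RNA fell under inhibitors on the high fat diet, and TFE3 RNA passed in no comparison. TFEB (chromosome 6, 41683978 to 41736259 on hg38) was read at low depth, with 85 to 251 counts per library. TFEB stood at 3.57, 2.82, 2.92 and 3.88 CPM in the untreated high fat libraries, at 1.55, 2.06, 1.58 and 2.47 with inhibitors on that diet, at 3.20, 3.69, 2.94 and 4.03 in the untreated ketogenic libraries and at 4.11, 2.08, 2.79 and 3.07 with inhibitors on the ketogenic diet. All 4 high fat libraries with inhibitors lay below the 4 untreated ones, while on the ketogenic diet the 2 groups overlapped. The change was 1.72-fold downward on the high fat diet (log2 -0.78, SE 0.22, edgeR quasi-likelihood adjusted p = 0.0106). On the ketogenic diet the value was -0.20 (edgeR quasi-likelihood adjusted p = 0.669), and the difference of the effects was 0.58 (SE 0.31), which did not pass (0.233 by the same test). By library size alone the call on the high fat diet was lost (log2 -0.53, edgeR quasi-likelihood adjusted p = 0.136), and it held under the other 18 alternatives. Between diets TFEB was at 0.07 without inhibitors and 0.65 with them, neither past the test.

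TFE3 (chromosome X, 49028726 to 49043486) is the second factor of the set. TFE3 stood at 51.6, 56.6, 54.2 and 43.2 CPM in the untreated high fat libraries, at 53.8, 49.01, 49.8 and 51.8 with inhibitors on that diet, at 51.5, 48.7, 47.3 and 52.9 in the untreated ketogenic libraries and at 49.5, 46.3, 48.2 and 59.1 with inhibitors on the ketogenic diet. The 4 groups overlapped, with log2 differences between -0.04 and 0.03 over the 5 comparisons, and that sign turned under several alternatives. MITF, which is not a member but shares their binding site type, ran at 127, 126, 135 and 101 CPM in untreated high fat libraries, 141, 118, 101 and 106 with inhibitors, 110.4, 99.2, 103 and 106 in untreated ketogenic libraries and 105, 129.5, 129 and 117 with inhibitors. By edgeR it passed in no comparison, with log2 values from -0.22 (diets, no inhibitors) to 0.26 (difference of effects), while limma voom called MITF in 4 of the 5 comparisons, at -0.21 and 0.27 for the inhibitors by diet (high fat first), -0.28 for the untreated diets and 0.47 for the difference of effects (limma voom adjusted p = 0.0211, 0.0496, 0.00737 and 0.00381). The fourth factor of the family, TFEC, stayed under 0.2 CPM in every library and was too low to test.

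**Figure D3:**
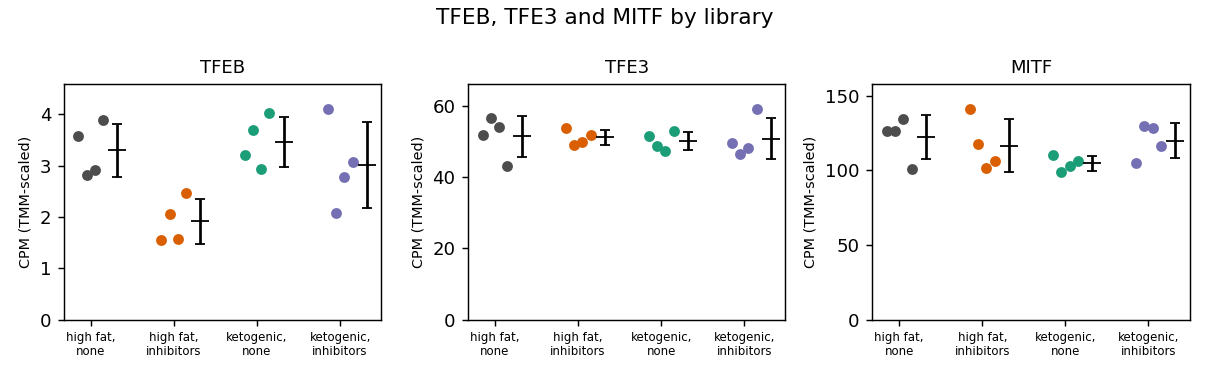
CPM in each library (points, vertical axis, linear from 0) of TFEB, TFE3 and MITF in the 4 groups, with the group mean as a line and the SD as a bar. TFEB with inhibitors on the high fat diet lies at 1.55 to 2.47 CPM, below the 2.82 to 3.88 of the untreated libraries.

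The proton pump had 5 of its 6 members higher with inhibitors on the high fat diet, namely ATP6V0D1, ATP6V1A, ATP6V1C1, ATP6V1H and ATP6AP1, and ATP6V1B2 did not pass (log2 0.08, SE 0.09). That is 83.3% of the 6, against 42.3% of all genes. ATP6V0D1 (chromosome 16, 67438014 to 67481237) encodes the subunit that joins the membrane ring to the central stalk. ATP6V0D1 stood at 24.4, 28.3, 25.6 and 20.6 CPM in the untreated high fat libraries, at 54.9, 61.02, 62.03 and 64.2 with inhibitors on that diet, at 45.5, 46.6, 43.7 and 36.5 in the untreated ketogenic libraries and at 50.02, 54.7, 56.3 and 65.2 with inhibitors on the ketogenic diet. The untreated high fat libraries were the lowest, the untreated ketogenic libraries lay above them, and both groups with inhibitors lay above both untreated groups. With inhibitors it was 2.45-fold higher on the high fat diet (log2 1.29, SE 0.11, edgeR quasi-likelihood adjusted p = 4.89e-06). On the ketogenic diet it was at 1.31-fold (log2 0.39, SE 0.11), which did not pass (edgeR quasi-likelihood adjusted p = 0.08), and the groups did not overlap.

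ATP6V1H (chromosome 8, 53715557 to 53843558) encodes a regulatory subunit of the cytosolic, ATP-splitting part. ATP6V1H stood at 31.1, 32.4, 33.05 and 28.1 CPM in the untreated high fat libraries, at 53.7, 55.7, 60.8 and 58.98 with inhibitors on that diet, at 44.8, 46.6, 45.7 and 40.3 in the untreated ketogenic libraries and at 50.1, 53.3, 49.1 and 47.7 with inhibitors on the ketogenic diet. The 4 groups followed the order untreated high fat, untreated ketogenic, ketogenic with inhibitors and high fat with inhibitors, with no overlap between neighbours. It rose by 0.88 on the high fat diet (SE 0.08, edgeR quasi-likelihood adjusted p = 5.51e-06). Of the neighbours in that order, the ketogenic groups (0.17) and the groups with inhibitors (-0.20 between diets) did not differ past the test. The catalytic subunit ATP6V1A ran at 55.8 to 66.3 CPM untreated and at 83.1 to 106 under inhibitors on the high fat diet (log2 0.61, SE 0.10), without overlap. On the ketogenic diet it ran at 66.5 to 75.9 untreated and 80.3 to 111 with inhibitors, again without overlap (log2 0.40, SE 0.10, edgeR quasi-likelihood adjusted p = 0.0561). ATP6V1C1, a stalk subunit, ran at 37.8 to 42.1 CPM untreated and at 59.7 to 76.7 under inhibitors on the high fat diet (log2 0.82, SE 0.11), and the accessory subunit ATP6AP1 at 90.7 to 103 and 116 to 125 (log2 0.34, SE 0.08). Ribosomal RNA was at 15.01% to 19.97% in the libraries with inhibitors against 21.7% to 50.01%, and without the 3 libraries over 30% ATP6V0D1 was at 1.41 (edgeR quasi-likelihood adjusted p = 0.000205) and the other 4 also passed.

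Between diets without inhibitors 3 of the 6 pump members were higher on the ketogenic diet, ATP6V0D1 (log2 0.80, SE 0.11), ATP6V1H (log2 0.51, SE 0.08) and ATP6AP1 (log2 0.28, SE 0.08), with edgeR quasi-likelihood adjusted p from 0.00197 to 0.028. All genes passed at 13.5% there, 7.99% higher. Each was free of overlap between the groups. ATP6V1A (0.23), ATP6V1C1 (0.27) and ATP6V1B2 (-0.13) stayed short of the threshold. Omission of single libraries ended the call of ATP6AP1 in 5 of 8 cases (edgeR quasi-likelihood adjusted p up to 0.0924, without untreated ketogenic replicate 2). Without the 3 libraries over 30% ribosomal RNA, which fall in these groups, ATP6V0D1 was at 0.88 (edgeR quasi-likelihood adjusted p = 0.0563) and ATP6V1H at 0.55 (0.0758).

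**Figure D4:**
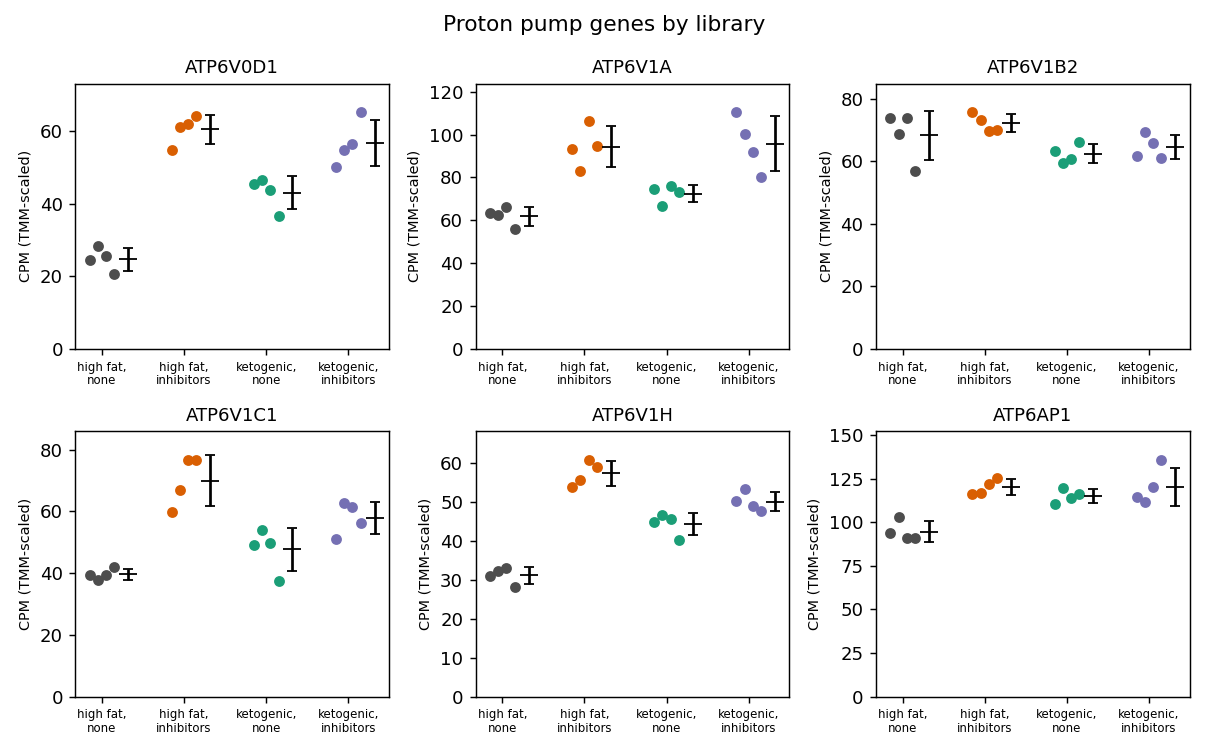
CPM in each library (points, vertical axis, linear from 0) of the 6 proton pump members in the 4 groups, with the group mean as a line and the SD as a bar. ATP6V0D1 runs from 20.6 to 28.3 CPM in untreated high fat libraries and from 54.9 to 64.2 with inhibitors, while ATP6V1B2 overlaps between these high fat groups.

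Among 7 membrane proteins LAMP1, CD63 and MCOLN1 rose and CD68 fell with inhibitors on the high fat diet (57.1%, where 42.3% of all genes passed). LAMP1 (chromosome 13, 113297241 to 113323672) is a heavily glycosylated coat protein of the lysosomal membrane. LAMP1 stood at 195, 213, 186 and 162 CPM in the untreated high fat libraries, at 288, 296, 263 and 268 with inhibitors on that diet, at 312, 290.0, 270.3 and 271 in the untreated ketogenic libraries and at 224, 298, 278 and 261 with inhibitors on the ketogenic diet. The untreated high fat libraries were the lowest and overlapped with none of the other groups, which overlapped among themselves. With inhibitors LAMP1 rose on the high fat diet (log2 0.56, SE 0.10, edgeR quasi-likelihood adjusted p = 0.00066), and on the ketogenic diet it was at -0.11 (0.615 by the same test). Among untreated libraries it was higher on the ketogenic diet (log2 0.60, SE 0.10, edgeR quasi-likelihood adjusted p = 0.00369). Without the 3 libraries over 30% ribosomal RNA this was 0.66 (edgeR quasi-likelihood adjusted p = 0.0802).

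MCOLN1 (chromosome 19, 7522626 to 7534009) is the calcium channel of the lysosome that acts upstream of TFEB release. MCOLN1 stood at 16.9, 19.7, 15.2 and 16.95 CPM in the untreated high fat libraries, at 26.3, 27.8, 26.99 and 28.2 with inhibitors on that diet, at 21.3, 21.8, 18.3 and 18.1 in the untreated ketogenic libraries and at 22.5, 20.5, 23.3 and 29.8 with inhibitors on the ketogenic diet. With inhibitors on the high fat diet the 4 libraries stood above all untreated ones (log2 0.67, SE 0.12, edgeR quasi-likelihood adjusted p = 0.00042), while the ketogenic groups overlapped (0.27). CD63, a tetraspanin of late endosomes and melanosomes, ran at 267 to 406 CPM untreated and at 564 to 699 under inhibitors on the high fat diet (log2 0.88, SE 0.17) and stood at 459.9 to 543 in untreated ketogenic libraries (log2 0.60, SE 0.17 between diets). Replicates with inhibitors on the ketogenic diet spread from 466 to 892 CPM. CD68, a heavily glycosylated protein that is also a macrophage gene, ran at 43.5 to 58.6 CPM untreated and at 28.7 to 42.05 under inhibitors on the high fat diet (log2 -0.64, SE 0.21). Of the macrophage list, 1 of 10 markers tested, LYZ, rose with inhibitors on that diet (log2 2.74), a share of 10% that is below the 42.3% of all genes. On the untreated ketogenic diet LYZ (log2 2.69) and FCER1G (log2 2.11) were higher, 2 of the 10 (20%, against 13.5% of all genes). The difference of the inhibitor effect passed for LYZ (log2 -2.81), 1 of the 10 (10%, near the 9.02% of all genes). LYZ and FCER1G stayed at or under 4.76 and 2.81 CPM. ADGRE1, the human gene of the antigen called F4/80 in mice, stood at 12.3 to 18.7 CPM in the 16 libraries and passed in no comparison. In that list PTPRC was at most 0.691, CD14 at most 0.592 and CSF1R at most 0.406 CPM in any library, AIF1 and ELANE were at 0 in all untreated high fat libraries, and the summed level was 40.4 to 45.5 CPM there and 44.5 to 60.5 with inhibitors, with CTSS, itself a lysosomal protease, on top. The part of macrophages in the CD68 values was not tested, and human symbols cannot show how many mouse macrophages of the host were present. LAMP2, SCARB2 and CLN3 passed in no comparison, with log2 values from -0.16 to 0.25. Omission of single libraries ended the call of CD68 in 4 of 8 cases (edgeR quasi-likelihood adjusted p up to 0.0695, without high fat replicate 3 with inhibitors), and that of CD63 between diets in 6 of 8 (up to 0.0908, without untreated high fat replicate 3).

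Of 8 proteases CTSA, CTSB and CTSZ rose under inhibitors on the high fat diet and 0 fell, a share of 37.5% that is below the 42.3% of all genes. CTSA (chromosome 20, 45890144 to 45898820) is a serine carboxypeptidase that also protects the galactosidase and neuraminidase of its complex. CTSA stood at 133, 149.9, 127 and 87.3 CPM in the untreated high fat libraries, at 201, 203, 194 and 208 with inhibitors on that diet, at 194, 192, 182 and 214 in the untreated ketogenic libraries and at 162, 189.9, 173 and 234 with inhibitors on the ketogenic diet. The untreated high fat libraries lay below every other library. The change was log2 0.70, SE 0.14 with inhibitors on the high fat diet (edgeR quasi-likelihood adjusted p = 0.0011) and log2 0.65, SE 0.14 between diets without inhibitors (0.00835 by the same test). NEURL2 overlaps 17.7% of its exonic bases on the opposite strand, and without a stated strand setting reads of the pair cannot be told apart.

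CTSZ (chromosome 20, 58995185 to 59007247), a cysteine carboxypeptidase, had the largest difference between the untreated diets among the 40. CTSZ stood at 173, 171, 140.1 and 132 CPM in the untreated high fat libraries, at 241, 228, 249 and 256 with inhibitors on that diet, at 248, 345, 265 and 293 in the untreated ketogenic libraries and at 205, 259, 253 and 363 with inhibitors on the ketogenic diet. Again the untreated high fat libraries were the lowest, with no overlap with the other 3 groups. Among untreated libraries it was 1.87-fold higher on the ketogenic diet (log2 0.90, SE 0.15, edgeR quasi-likelihood adjusted p = 0.00304), and with inhibitors it rose by 0.66 on the high fat diet (0.00271 by the same test). CTSB, the cathepsin B protease, ran at 549.6 to 654 CPM untreated and at 836 to 1008 under inhibitors on the high fat diet (log2 0.62, SE 0.13) and ran at 700.1 to 1014 and 607 to 848 on the ketogenic diet. CTSD, CTSF, CTSK, CTSL and TPP1 passed in no comparison. Among these CTSK, the collagen-degrading cathepsin of osteoclasts, was at 36.3 to 96.99 and 108 to 126 CPM in the high fat groups (log2 0.60, SE 0.24, edgeR quasi-likelihood adjusted p = 0.055), with untreated replicate 4 the lowest. In the osteoclast-type and fibroblast marker list 3 of 10 tested markers passed for inhibitors on the high fat diet (30%, against 42.3% of all genes), ACP5 and COL3A1 higher and PDGFRB lower. ACP5, the osteoclast acid phosphatase, ran at 18.4 to 36.6 CPM untreated and at 50.5 to 64.5 with inhibitors (log2 0.96), and PDGFRB, a receptor of fibroblasts and pericytes, at 24.6 to 29.8 and 12.5 to 17.6 (log2 -0.92). Both also differed between the untreated diets (log2 0.75 for ACP5 and -0.73 for PDGFRB). The sum of the list was 88.0 to 111 CPM untreated and 103 to 118 with inhibitors for the high fat groups, and 118 to 134 and 101 to 144 for the ketogenic ones, and untreated high fat replicate 4 held 52.6 CPM of DCSTAMP, a fusion protein of osteoclasts, against 12.4 to 22.8 in its group. The part of such cells in these values was not tested, and human symbols cannot show how many mouse cells of the host were present. Without the 3 libraries over 30% ribosomal RNA CTSA was at 0.83 (edgeR quasi-likelihood adjusted p = 0.0797) and CTSZ at 0.81 (0.09) between diets, and CTSA, CTSB and CTSZ still passed for inhibitors on the high fat diet.

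The glycosidases were split. With inhibitors on the high fat diet GLA rose, GAA and GLB1 fell, and GUSB, HEXA and NEU1 did not pass, so that 3 of 6 were called where 42.3% of all genes were. GAA (chromosome 17, 80101556 to 80119879) is the acid alpha-glucosidase that breaks down glycogen in lysosomes. GAA stood at 139, 137, 136 and 99.3 CPM in the untreated high fat libraries, at 79.9, 70.8, 60.9 and 62.7 with inhibitors on that diet, at 82.05, 66.7, 92.2 and 102 in the untreated ketogenic libraries and at 99.3, 56.8, 66.00 and 59.8 with inhibitors on the ketogenic diet. High fat libraries with inhibitors lay below all untreated ones, and the untreated ketogenic libraries overlapped with both. The fall was 1.86-fold (log2 -0.90, SE 0.17, edgeR quasi-likelihood adjusted p = 0.000854). Between diets without inhibitors GAA was lower on the ketogenic diet (log2 -0.58, SE 0.17, edgeR quasi-likelihood adjusted p = 0.0369), and omission of single libraries ended that call in 6 of 8 cases (up to 0.133 by the same test, without untreated ketogenic replicate 2). GLA, the alpha-galactosidase of globoside breakdown, ran at 14.7 to 20.8 CPM untreated and at 22.1 to 28.1 under inhibitors on the high fat diet (log2 0.53, SE 0.20). GLB1, the beta-galactosidase used as a marker of senescence, ran at 53.8 to 64.3 CPM untreated and at 49.04 to 54.01 under inhibitors on the high fat diet (log2 -0.24, SE 0.09), overlapping, and stood at 0.04 when libraries were scaled by library size alone. Single libraries left out ended the call of GLA in 6 of 8 cases (edgeR quasi-likelihood adjusted p up to 0.0923, without high fat replicate 4 with inhibitors) and that of GLB1 in 7 (up to 0.11, without high fat replicate 3 with inhibitors). On the ketogenic diet GUSB was at 71.96 to 98.1 CPM untreated and 56.6 to 66.7 with inhibitors (log2 -0.39, SE 0.14), which did not pass, and the groups did not overlap.

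In the group of 6 with hydrolases of lipids or sulfates, their activators and progranulin, 1 rose and 0 fell with inhibitors on the high fat diet (16.7%, below the 42.3% of all genes). PPT1, which removes palmitate from proteins, ran at 168, 165, 167 and 160.3 CPM untreated and 183, 196, 194 and 209 with inhibitors in the high fat groups, and at 217, 219.5, 201 and 199.9 and 169, 209.8, 209 and 198 on the ketogenic diet. The untreated high fat libraries were the lowest and the tightest, below every library of the other groups. PPT1 rose with inhibitors on that diet (log2 0.24, SE 0.08, edgeR quasi-likelihood adjusted p = 0.0279). In untreated libraries PPT1 was higher on the ketogenic diet (log2 0.34, SE 0.08) and ASAH1, the acid ceramidase, lower (log2 -0.39, SE 0.10), at 30.7 to 37.7 against 37.8 to 50.3 CPM without overlap. Prosaposin (PSAP), the precursor of the saposins, was at 1727 to 1916 CPM in untreated high fat libraries and 1241 to 1766 in untreated ketogenic ones (log2 -0.30, SE 0.12, edgeR quasi-likelihood adjusted p = 0.0997). ARSA, LIPA, PSAP and the progranulin gene GRN passed in no comparison, with log2 values from -0.30 to 0.26. Omission of single libraries ended the call of PPT1 for the inhibitors in 6 of 8 cases (edgeR quasi-likelihood adjusted p up to 0.0901, without high fat replicate 4 with inhibitors), that of PPT1 between diets in 2 and that of ASAH1 in 4 (up to 0.0579 and 0.0876, both without untreated ketogenic replicate 2). CAP1 overlaps 23.4% of the exonic bases of PPT1 on the opposite strand.

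Autophagy members moved in both directions with inhibitors on the high fat diet, where MAP1LC3B rose, WIPI1, GABARAPL1 and UVRAG fell, and SQSTM1 did not pass (4 of 5 called, against 42.3% of all genes). WIPI1 (chromosome 17, 68420948 to 68457513) binds phosphoinositides at the forming autophagosome. WIPI1 stood at 136, 121, 135 and 135 CPM in the untreated high fat libraries, at 105, 81.5, 80.4 and 82.1 with inhibitors on that diet, at 80.6, 62.7, 77.7 and 112 in the untreated ketogenic libraries and at 118, 81.3, 77.9 and 77.6 with inhibitors on the ketogenic diet. The untreated high fat libraries were the highest, above every other library. With inhibitors on that diet WIPI1 fell (log2 -0.59, SE 0.16, edgeR quasi-likelihood adjusted p = 0.00825), and between diets without inhibitors it was lower on the ketogenic diet (log2 -0.66, SE 0.16, 0.0154 by the same test). ARSG shares 24.3% of its exonic bases on the opposite strand, and omission of single libraries ended the diet call in 2 of 8 cases (edgeR quasi-likelihood adjusted p up to 0.0621, without untreated ketogenic replicate 2).

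MAP1LC3B encodes LC3B, the ubiquitin-like protein attached to autophagosome membranes. MAP1LC3B stood at 78.5, 77.1, 82.6 and 94.01 CPM in the untreated high fat libraries, at 106, 117, 121 and 128 with inhibitors on that diet, at 87.1, 80.8, 92.6 and 86.8 in the untreated ketogenic libraries and at 124, 102, 101 and 164 with inhibitors on the ketogenic diet. In both diets the libraries with inhibitors lay above the untreated ones. The change passed on the high fat diet (log2 0.51, SE 0.13, edgeR quasi-likelihood adjusted p = 0.00546) and did not on the ketogenic diet (log2 0.50, SE 0.13, 0.0585 by the same test), and the difference of the effects was -0.01. A near-identical copy, MAP1LC3B2, makes its counts uncertain. SQSTM1, the cargo receptor p62, was at 505 to 587 and 606 to 769 CPM in the high fat groups (log2 0.34, SE 0.15) and at 375 to 456 and 442 to 715 in the ketogenic groups (log2 0.49, SE 0.15), with edgeR quasi-likelihood adjusted p of 0.0654 and 0.0905. GABARAPL1, a relative of LC3, ran at 46.1 to 60.4 CPM untreated and at 34.9 to 43.4 under inhibitors on the high fat diet (log2 -0.37, SE 0.13). UVRAG, a partner in a lipid kinase complex, fell, at 27.6 to 34.4 CPM untreated and 24.00 to 26.2 with inhibitors on that diet (log2 -0.34, SE 0.09). Omission of single libraries ended the call of GABARAPL1 in 4 of 8 cases, with log2 -0.26 (edgeR quasi-likelihood adjusted p = 0.102) without untreated high fat replicate 4, its highest library.

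Whether the inhibitor effect differed between the diets was tested as the ketogenic effect minus the high fat effect. It passed in 7 members (17.5%, against 9.02% of all genes), each below 0, namely LAMP1, CTSA, CTSB, CTSZ, ATP6V0D1, ATP6V1C1 and ATP6V1H. For ATP6V0D1 the effects were 1.29 on the high fat and 0.39 on the ketogenic diet, a difference of -0.90 (SE 0.16, edgeR quasi-likelihood adjusted p = 0.0079). For ATP6V1H they were 0.88 and 0.17, a difference of -0.71 (0.00636 by the same test). LAMP1 (-0.67), CTSA (-0.74), CTSB (-0.76) and CTSZ (-0.75) combined a rise on the high fat diet with ketogenic effects of -0.14 to -0.04 that did not pass. ATP6V1C1 was at -0.54 (SE 0.16, edgeR quasi-likelihood adjusted p = 0.0448). Leaving out 1 of the 16 libraries ended the call of CTSZ in 13 cases, of ATP6V1C1 in 10, of CTSA in 7 and of CTSB in 4 (edgeR quasi-likelihood adjusted p up to 0.109, ATP6V1C1 without untreated ketogenic replicate 2). Without the 3 libraries over 30% ribosomal RNA 0 members and 0 genes of the whole table passed, with 9 members at an unadjusted p under 0.05 by edgeR, and ATP6V0D1 was at -0.98 (edgeR quasi-likelihood adjusted p = 0.0556). With the share of ribosomal RNA as a covariate 2 members passed, where 208 of 16012 genes did. On each diet that share did not overlap between the groups with and without inhibitors, so the covariate cannot be fully told apart from the inhibitors.

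The 2 inhibitor comparisons share no library. Of the 21 members called on the high fat diet 13 had the same sign on the ketogenic diet (61.9%), where 5178 of the 6771 genes of the whole table that passed on the high fat diet did (76.5%). The median absolute log2 value of those 21 members was 0.62 on the high fat diet, which chose them, and 0.17 on the ketogenic diet, and over those 6771 genes it was 0.68 and 0.21.

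**Figure D5:**
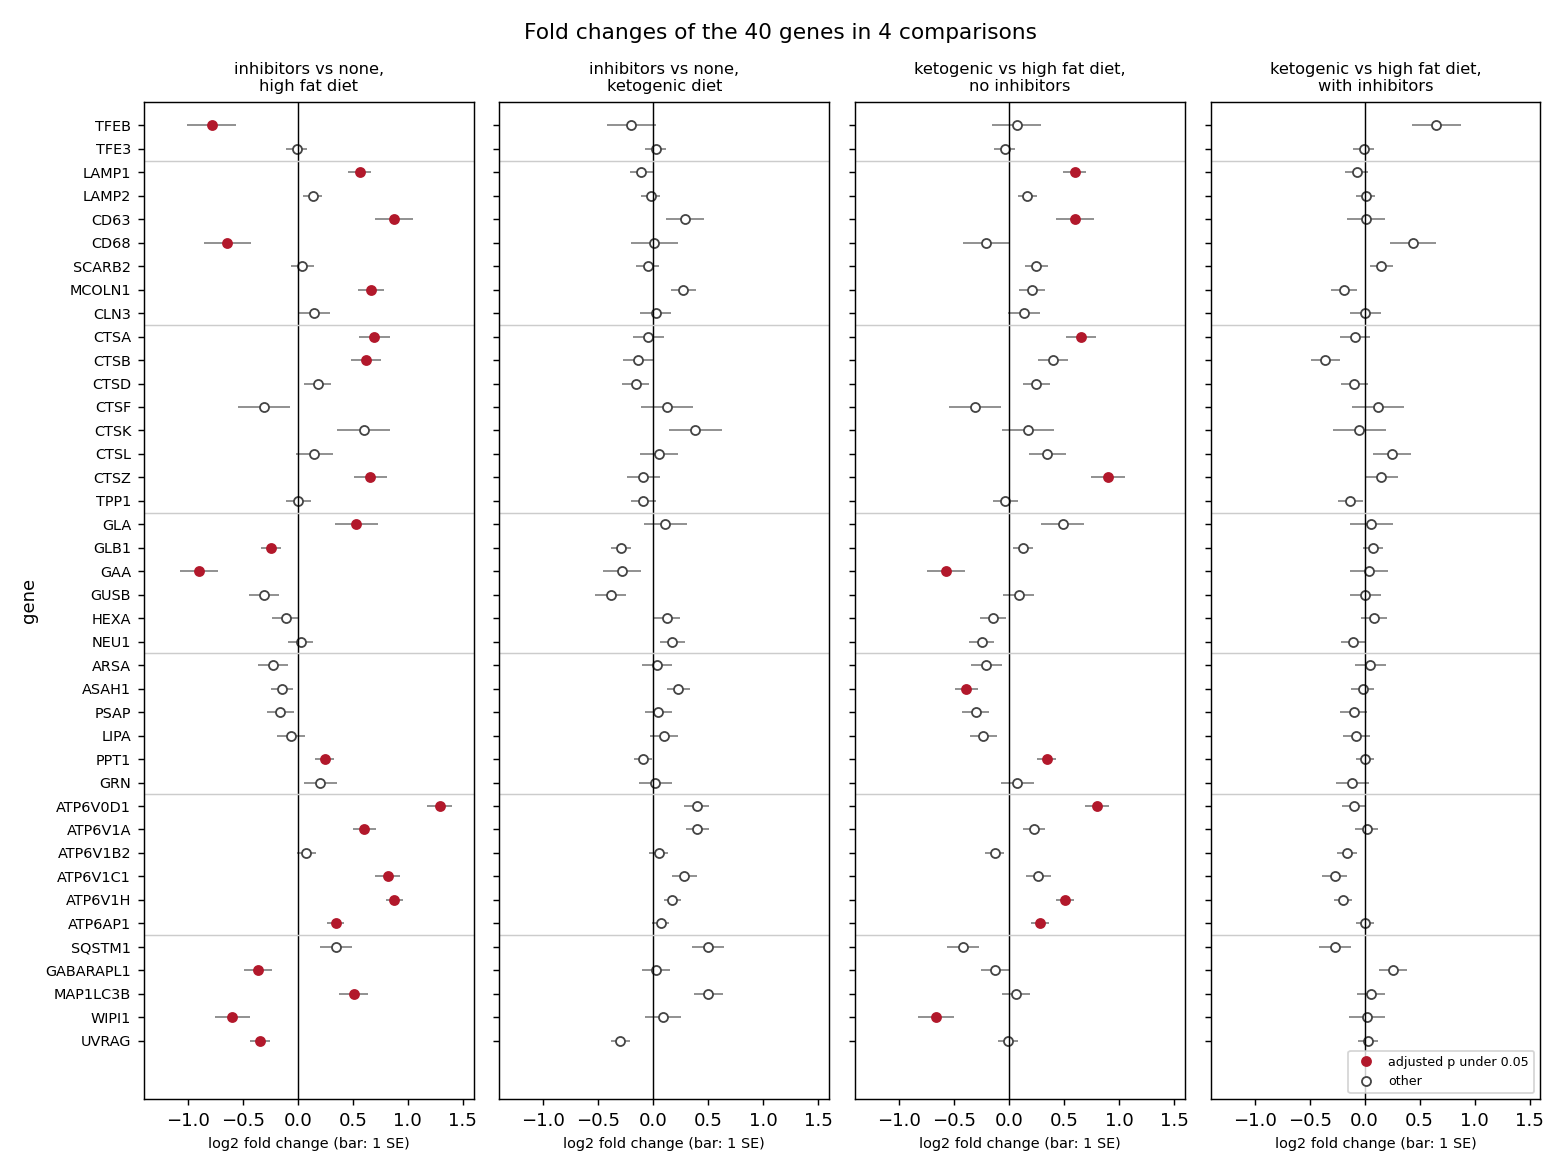
Log2 fold changes with their SE for the 40 members (lines, by role) in 4 panels of comparisons, with filled points for members whose adjusted p is under 0.05. In the panel of inhibitors on the high fat diet 14 points are filled above 0 and 7 below, and in that of inhibitors on the ketogenic diet 0 are filled.

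Genes of the same pathways outside the 40 were read from lists chosen by function. Of 16 other V-ATPase subunits 8 were higher and 2 lower under inhibitors on the high fat diet (62.5%, against 42.3% of all genes), with a median of 0.38. They include ATP6V0C, the proteolipid of the membrane ring (log2 1.01, SE 0.12), and ATP6V1D of the central stalk (log2 0.63, SE 0.10). Among untreated libraries 2 of the 16 were higher on the ketogenic diet and 0 lower (12.5%, near the 13.5% of all genes), ATP6V0C (log2 0.58, SE 0.12) and the accessory subunit ATP6AP2 (log2 0.42, SE 0.07). Of 20 tested genes of the MiT family and of its control by the RAG and mTORC1 machinery 6 were higher and 2 lower under inhibitors on the high fat diet (40%), among them the small GTPase RRAGA (log2 0.57, SE 0.08) and its lysosomal anchor LAMTOR1 (log2 0.83, SE 0.12). Both, and 0 others of the 20 (10% called, against 13.5% of all genes), were also higher on the ketogenic diet without inhibitors (RRAGA log2 0.35, SE 0.08 and LAMTOR1 log2 0.40, SE 0.12), and single libraries left out ended that call of LAMTOR1 in 6 of 8 cases (edgeR adjusted p up to 0.123, without untreated ketogenic replicate 2).

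Of 35 tested other lysosomal hydrolases and activators 9 were higher and 5 lower under inhibitors on the high fat diet (40%, near the 42.3% of all genes), including the sulfatase ARSB (log2 1.13, SE 0.12). On the untreated ketogenic diet 6 were higher and 4 lower (28.6%, against 13.5% of all genes), such as ARSB (log2 0.77, SE 0.12) and the hyaluronidase HYAL2 (log2 0.55, SE 0.09). Of 24 other membrane proteins 6 were higher and 8 lower under inhibitors on the high fat diet (58.3%), led by the transporter MFSD1 (log2 1.29, SE 0.10) and by LAMP3, a LAMP family member of dendritic cells and some tumours, which fell (log2 -2.49, SE 0.37). Between diets without inhibitors 1 was higher, MFSD1 (log2 0.68, SE 0.10), and 6 lower, one of them LAMP3 (log2 -1.80, SE 0.36), or 29.2% of the list. Of 18 genes that sort enzymes to lysosomes 8 rose and 2 fell with inhibitors on the high fat diet (55.6%), among them the late endosome GTPase RAB7A (log2 0.58, SE 0.08) and SUMF1, which activates sulfatases (log2 0.56, SE 0.09). On the ketogenic diet without inhibitors 4 were higher and 0 lower (22.2%), including SUMF1 (log2 0.46, SE 0.09) and the retromer subunit VPS29 (log2 0.55, SE 0.14). Of 42 other autophagy genes 9 rose and 8 fell with inhibitors on the high fat diet (40.5%), for example VPS18 (log2 0.71, SE 0.07), a tethering subunit, and WIPI2 (log2 0.46, SE 0.08), a relative of WIPI1. For the diets without inhibitors 0 were higher and 3 lower (7.14%, below the 13.5% of all genes), including ATG14 (log2 -0.52, SE 0.13) and STX17 (log2 -0.30, SE 0.10), both needed for autophagosomes. Single libraries left out ended the diet call of VPS29 in 4 of 8 cases, of ATG14 in 2 and of STX17 in 7 (edgeR adjusted p up to 0.131, STX17 without untreated ketogenic replicate 2), and without the 3 libraries over 30% ribosomal RNA all these diet calls were lost. With inhibitors on the ketogenic diet 1 gene in each of 4 lists was higher and 0 lower, where 1.74% of all genes passed. They were the pump subunit ATP6V1G1 (log2 0.50, SE 0.12), 1 of 16 (6.25%), and the acid phosphatase ACP2 (log2 0.43, SE 0.10), 1 of 35 (2.86%). The others were the membrane protein OSTM1 (log2 0.53, SE 0.10), 1 of 24 (4.17%), and VAMP8, a fusion protein of autophagosomes (log2 0.70, SE 0.17), 1 of 42 (2.38%). The lists of control machinery (20 tested) and sorting (18) had 0. Between diets with inhibitors VPS18 was lower on the ketogenic diet (log2 -0.42, SE 0.07), 1 of 42 autophagy genes (2.38%), where 0.169% of all genes passed. These 5 values were named after they were seen. The medians for inhibitors on the high fat diet were 0.22 for the control machinery, -0.002 for hydrolases, -0.08 for membrane proteins, 0.19 for sorting and 0.01 for autophagy, against -0.03 for all genes.

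Among the 6 members whose promoter window holds TCACGTGA, ATP6V0D1 (1.29), CTSA (0.70), MCOLN1 (0.67) and LAMP1 (0.56) rose with inhibitors on the high fat diet, GAA fell (-0.90) and CLN3 did not pass (0.15). Of all genes 42.3% passed there. Members with windows but no TCACGTGA were also called, such as CD63 (0.88), CTSZ (0.66) and WIPI1 (-0.59), while SCARB2 (0.04) and TPP1 (0.005) did not pass. Whether the motif goes with the response was not tested. Under the ketogenic diet the values of the 6 members ran from -0.28 (GAA) to 0.39 (ATP6V0D1), none past the test, where 1.74% of all genes passed.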

How the data were processed

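The deposited table holds expected (estimated) counts for 26475 gene symbols in 16 libraries, not scaled for depth. Bowtie2 2.1.0, RSEM 1.2.15 and build hg38 are named without a role, per the submitters' processing notes. Which gene models were used, how strand was set and whether mouse reads were removed is not given in the sources used. The deposited estimated counts, 13% of them not whole, were rounded and tested in R 4.3.3 with edgeR 4.0.16 (filterByExpr by group, TMM, robust quasi-likelihood F test, two-sided). One model of 4 group means held all 16 libraries, with Benjamini-Hochberg adjustment over the 16012 genes tested and a threshold of 0.05. Differences are log2 fold changes with their standard error (SE).

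The members, the pathway and marker lists and the tests were chosen with earlier results of these data known. Named genes are every member past the threshold, TFEB, TFE3 and MITF, and, of each other pathway list, the 2 genes with the smallest p for inhibitors on the high fat diet and the 2 for the diets without inhibitors. Of the genes this rule names, 1 is not reported here. Positions of genes are those of GENCODE on hg38, and promoter windows are from RefSeq. Alternatives were RLE factors, library size alone, ribosomal RNA genes removed, DESeq2 1.42.0, limma 3.58.1 (voom with quality weights), other low-count filters, only the libraries compared, a replicate block, the ribosomal RNA share as a covariate, each library left out in turn and, added after seeing the data, 3 libraries over 30% ribosomal RNA left out. The script was tested on simulated data. Depth, from 37.1 to 77.3 M counts per library, limits TFEB most, at 85 to 251 counts.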

Additional observations from a re-analysis of the deposited data

Results flagged for a closer look

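In 160 tests of 1 member in 1 group for a library far from the other 3, 14 met the criterion, where chance gives about 8 (5%). Untreated high fat replicate 4 gave 5 of them. It was low in CTSK (36.3 CPM, others 88.3 to 97.0), GLB1 (53.8, others 63.8 to 64.3), GAA (99.3, others 136 to 139) and GUSB (52.2, others 82.4 to 87.3), and high in GABARAPL1 (60.4, others 46.1 to 47.5). The fourth ketogenic replicate with inhibitors was high in CTSD (308 CPM, others 209 to 219) and NEU1 (39.3, others 27.6 to 29.2) and low in TPP1 (104, others 134 to 138). Untreated ketogenic replicate 4 was high in CTSD (315 CPM, others 245 to 256) and GLB1 (77.4, others 63.0 to 64.6). Replicate 1 with inhibitors on the ketogenic diet was high in CTSF (175 CPM, others 91.0 to 105) and WIPI1 (118, others 77.6 to 81.3). WIPI1 was also high in high fat replicate 1 with inhibitors (105 CPM, others 80.4 to 82.1) and low in untreated high fat replicate 2 (121, others 135 to 136).

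By the test of the difference itself, the inhibitor effect differed between the diets in 7 members (17.5%), where 9.02% of all genes passed (4.66% below 0, 4.36% above). Of the 7 calls 0 held under every alternative, and without the 3 libraries over 30% ribosomal RNA 0 members and 0 genes passed. The ketogenic effect minus the high fat effect was -0.90 for ATP6V0D1, -0.76 for CTSB, -0.75 for CTSZ, -0.74 for CTSA, -0.71 for ATP6V1H, -0.67 for LAMP1 and -0.54 for ATP6V1C1 on the log2 scale.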

How the results depend on the processing

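For inhibitors on the high fat diet all 19 alternatives gave 15 to 27 members, 16 to 20 with single libraries left out, and 12 of the 21 members kept direction and call in each. In the diet comparison without inhibitors 0 of 11 did, and in the difference of effects 0 of 7. Over all genes the alternatives for inhibitors on the high fat diet gave 3858 to 9944 calls, the most by limma voom, against 6771 in the main fit. The count for inhibitors on the ketogenic diet, 0, was 5 by library size alone, 6 by DESeq2, 7 by limma voom and 0 to 1 with single libraries left out. Over all genes the calls there were 981, 880, 1456 and 88 to 437, in the same order, against 279 in the main fit. Between diets without inhibitors the 11 became 25 by limma voom, 0 without the 3 libraries over 30% ribosomal RNA and 5 to 14 with single libraries left out. Over all genes these gave 6393, 0 and 778 to 2640 calls, against 2163 in the main fit. Between diets with inhibitors limma voom gave 4 members and 1057 of 16012 genes. The 7 differences of effect became 1 by library size alone, 18 by limma voom (13 below and 5 above 0), 2 with the share of ribosomal RNA as a covariate, 0 without the 3 libraries and 3 to 12 with single libraries left out. Over all genes these gave 238, 5208, 208, 0 and 407 to 2636 calls, against 1444 in the main fit. Causes of these shifts were not tested, except that leaving libraries out leaves fewer samples. Signs turned for GLB1 (inhibitors, high fat) at 0.041 by library size alone, for MITF there at 0.23 by library size alone and 0.019 without the 3 libraries, for TFEB at 0.066 (inhibitors, ketogenic, library size alone) and at -0.15 between untreated diets without the 3 libraries, and for TFE3 in each comparison. TFE3 for inhibitors on the high fat diet was at 0.28 (library size alone), 0.0034 (ribosomal RNA genes removed), 0.0036 (only the libraries compared), 0.073 (covariate) and 0.090 (without the 3 libraries), and for inhibitors on the ketogenic diet at -0.065 (limma voom). Between untreated diets TFE3 was at 0.15 (library size alone), 0.0094 (covariate) and 0.081 (without the 3 libraries), between diets with inhibitors at 0.15, 0.0023 (only the libraries compared) and 0.092 (covariate), and in the difference at -0.0012 (library size alone) and -0.090 (without the 3 libraries). With single libraries left out TFE3 ran from -0.082 to 0.042 and from -0.060 to 0.061 for the inhibitors on the high fat and ketogenic diets, from -0.11 to 0.013 and from -0.090 to 0.032 between diets without and with inhibitors, and from -0.053 to 0.10 in the difference, TFEB between untreated diets from -0.0095 to 0.16 and MITF between diets with inhibitors from -0.022 to 0.14. With a replicate block, which treats equal replicate numbers as pairs, 21 members passed for inhibitors on the high fat diet (15 higher, 6 lower) and 1 on the ketogenic diet. Over all 16012 genes that block gave 6826 and 262 calls. The numbers were not taken to pair the libraries, since 4 of 24 same-numbered pairs had a correlation of deviations over 0.1 (median 0.018) and 3 of 16 libraries correlated best with their own number.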
